A study of Mus musculus with 9 samples.

Results

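The interferon response genes described here are 41 mouse genes whose transcription is induced by interferons or that regulate that induction, matched by symbol in the deposited tables. All 41 were found among the 55536 genes listed there, and the rule that names them uses no measured value. RNA was sequenced from muscle of male ICR mice, an outbred stock, in 9 libraries. Aged GW8510 libraries 1, 3 and 4 came from mice of 18 months given GW8510, a benzenesulfonamide, at 2 mg/kg by intraperitoneal injection once a day for 14 days in 0.5% sodium carboxymethylcellulose. Aged vehicle libraries 1, 3 and 4 came from vehicle-treated mice of 18 months, and young vehicle libraries 2, 3 and 4 from vehicle-treated mice of 2 months. The labels name neither the muscle nor the hour of collection, and they do not say that each library is a separate animal, so p-values measure only the spread between these libraries. Age cannot be told apart from any difference in stock or housing between the young and the aged mice.

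Interferons are secreted proteins that bind receptors on neighbouring cells and, through the receptor-bound JAK kinases, activate STAT transcription factors. Type I interferons act mainly through a complex that includes STAT2 and IRF9 and binds the interferon-stimulated response element, while the response to interferon gamma runs mainly through the gamma-activated site. The induced genes encode sensors of foreign RNA, proteins that block viral replication, GTPases that attack intracellular vacuoles, and the machinery that cuts and transports peptides for antigen presentation. In muscle these transcripts can come from fibres and from the resident macrophages, endothelial cells and fibroblasts between them. In whole tissue, fewer cells of a type and less RNA per cell cannot be told apart.

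The promoter windows of 6 of these genes are printed because the results below turn on them or on their families. Each window runs from 250 bases before to 50 after the annotated start, on the strand of the gene, from RefSeq on GRCm38.p6. Capitals mark matches, searched on both strands, of the interferon-stimulated response element (GAAA, any 2 bases, then GAAA) or of the gamma-activated site (TTC, any 3 bases, then GAA, which reads the same on both strands). Matches may overlap each other, and a match is a description of the letters, not of binding.
Irf7, chr7:141266375-141266674, minus strand: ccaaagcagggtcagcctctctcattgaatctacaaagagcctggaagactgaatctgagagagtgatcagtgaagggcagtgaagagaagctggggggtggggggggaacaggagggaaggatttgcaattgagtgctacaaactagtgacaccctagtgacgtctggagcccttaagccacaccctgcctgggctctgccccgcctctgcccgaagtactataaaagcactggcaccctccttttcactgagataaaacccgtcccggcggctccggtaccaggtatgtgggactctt
Isg15, chr4:156200769-156201068, minus strand: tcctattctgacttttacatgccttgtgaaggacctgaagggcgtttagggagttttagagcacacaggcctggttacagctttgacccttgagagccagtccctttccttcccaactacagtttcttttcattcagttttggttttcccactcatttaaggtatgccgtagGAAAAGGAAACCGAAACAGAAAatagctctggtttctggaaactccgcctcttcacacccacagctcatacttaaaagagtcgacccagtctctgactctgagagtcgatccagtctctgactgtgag
Irf1, chr11:53769764-53770063, plus strand: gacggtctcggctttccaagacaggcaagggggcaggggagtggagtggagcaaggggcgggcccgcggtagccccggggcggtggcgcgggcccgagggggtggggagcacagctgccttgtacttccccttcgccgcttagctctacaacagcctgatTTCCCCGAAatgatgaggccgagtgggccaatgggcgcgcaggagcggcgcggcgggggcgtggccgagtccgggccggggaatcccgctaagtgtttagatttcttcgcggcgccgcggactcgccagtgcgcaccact
Gbp2, chr3:142620413-142620712, plus strand: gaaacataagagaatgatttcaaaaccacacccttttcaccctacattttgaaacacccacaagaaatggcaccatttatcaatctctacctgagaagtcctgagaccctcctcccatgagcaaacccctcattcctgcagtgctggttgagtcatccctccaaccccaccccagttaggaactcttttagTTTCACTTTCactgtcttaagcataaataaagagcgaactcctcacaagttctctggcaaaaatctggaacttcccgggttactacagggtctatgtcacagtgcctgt
Irgm1, chr11:48871371-48871670, minus strand: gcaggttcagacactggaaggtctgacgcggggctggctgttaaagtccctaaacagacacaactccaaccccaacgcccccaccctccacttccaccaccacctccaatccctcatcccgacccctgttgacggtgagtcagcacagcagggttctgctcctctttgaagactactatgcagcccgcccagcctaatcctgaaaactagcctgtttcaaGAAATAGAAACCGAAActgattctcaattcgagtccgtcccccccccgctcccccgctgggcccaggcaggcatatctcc
Igtp, chr11:58199306-58199605, plus strand: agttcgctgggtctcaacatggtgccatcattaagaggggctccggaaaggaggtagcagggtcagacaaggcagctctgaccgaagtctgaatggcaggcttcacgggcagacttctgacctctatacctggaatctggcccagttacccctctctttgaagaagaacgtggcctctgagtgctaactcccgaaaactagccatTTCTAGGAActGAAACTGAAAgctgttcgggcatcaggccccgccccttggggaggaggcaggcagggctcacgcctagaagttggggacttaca

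Isg15 held 3 overlapping matches of the response element, with first bases at -78, -72 and -66 from the start. Gbp2 held 1 on the opposite strand at -59, Irgm1 held 2 that overlap at -30 and -24, and Igtp held 1 at -34 just after a gamma-activated site at -45. Irf1 held a gamma-activated site at -90 and no response element, and the Irf7 window held neither set of letters. RefSeq windows were found for 31 of the 41 genes, and Dhx58, Zbp1, Oas2, Mx1, Mx2, Parp14, Usp18, Gbp4, Iigp1 and Ifi27 had none. The response element letters stood in 17 of the 31 genes, or 47.2% of their 36 windows, against 3.44% of all 32851 windows in the table. The gamma-activated site letters stood in 10 of the 31 genes, or 27.8% of their windows, against 8.30% of all windows. All 6 guanylate-binding and immunity-related GTPase genes with a window held the response element letters. The windows of Xaf1, Oasl2 and Ifi44, which appear beside Irf7 in the comparisons with young muscle, held neither.

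Library totals ran from 21718930 to 27437937 counts, at which 3 counts are worth 0.109 to 0.138 CPM (counts scaled to a library total of 1000000). Levels below are CPM scaled by library sizes adjusted with TMM factors, and levels between genes are compared per length, in TPM. The 12 skeletal muscle markers summed to between 124730 and 185240 CPM, and all were detected in every library. Aged vehicle 4 stood apart from the other libraries, at 41.2 on a second principal component on which the other 8 lay between -18.2 and 12.7, so results that rest on it are given with and without it. Its 6 B and plasma cell markers summed to 33.3 CPM, against 0.491 to 1.498 CPM in the other 8 libraries, and all 6 were highest in it. The sum of 6 neutrophil markers was 19.4 CPM in aged vehicle 4, against 1.29 to 7.35 CPM elsewhere, with 4 of 6 highest in it, while the neutrophil gene Ly6g had no count in 8 libraries, aged vehicle 4 included. T and NK cell markers summed to 4.46 CPM, against 0.681 to 3.42 CPM elsewhere, with 5 of 9 highest in it. The macrophage markers summed to 109 CPM, within the 78.4 to 288 CPM of the other libraries. Its 6 fibroblast markers summed to 68.8 CPM, below the 208 to 1932 CPM elsewhere, and its 8 endothelial markers to 206 CPM, below the 220 to 416 CPM elsewhere.

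Most interferon response genes were weakly expressed. By mean over the 9 libraries the highest were Ifi27 at 39.0 TPM, Bst2 at 17.7 TPM, Psmb10 at 16.9 TPM and Ifi35 at 14.2 TPM, and the lowest was Oas3 at 0.0144 TPM. Zbp1, Oas3 and Mx1 did not pass the filter on low counts, with 73, 12 and 33 counts in all libraries together, and the other 38 were tested. A single library held the highest level of most of the genes: 23 of the 41, or 56.1%, were highest in aged vehicle 4, against 23.2% of the 14384 genes tested. Young vehicle 2 and young vehicle 3 each held the highest level of 7 genes, and young vehicle 4 of none.

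**Figure D1:**
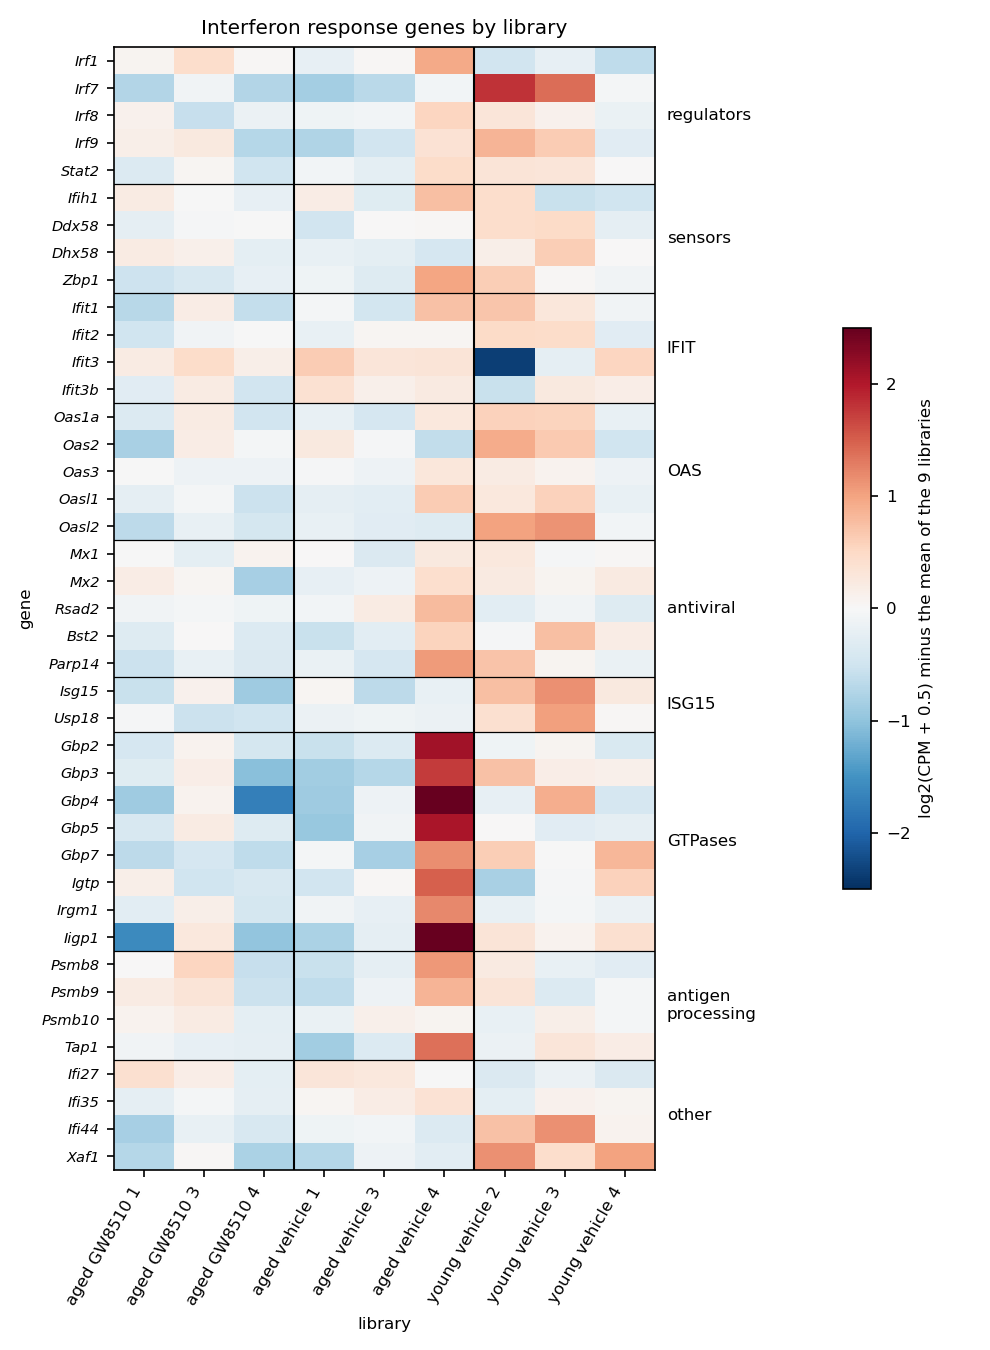
Level of each of the 41 genes in the 9 libraries, as log2(CPM + 0.5) minus the mean of the 9 libraries, with the genes grouped by role and the colour scale ending at 2.5 in either direction. Red in the aged vehicle 4 column runs through the GTPases, Tap1, Psmb8 and Psmb9. Red in young vehicle 2 and 3 marks Irf7, Oasl2, Isg15, Usp18 and Ifi44, while Xaf1 is highest in young vehicle 2 and 4.

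The comparison of aged vehicle with young vehicle muscle asked which transcripts differ with age. No interferon response gene passed the threshold, a Benjamini-Hochberg adjusted p under 0.05 over all genes in edgeR's quasi-likelihood test, while 175 of 14384 genes (1.22%) passed. By limma-voom 0 passed as well, and by DESeq2 Irf7 and Xaf1 passed, both lower. These are 2 of the 39 genes of the list with an adjusted p from DESeq2, or 5.13% lower and 0 higher, against 3.55% lower and 2.48% higher of all genes with one. At an unadjusted p under 0.05, 7 of the 38 genes tested were lower and 3 higher in aged vehicle muscle, which is 18.4% and 7.89%, against 10.1% and 9.07% of all genes. The groups did not overlap for the same numbers of genes, 7 lower and 3 higher, against 13.5% and 12.7% of all genes. The lower genes were Irf7, Isg15, Usp18, Oasl2, Dhx58, Ifi44 and Xaf1, and the higher ones Irf1, Rsad2 and Ifi27. The median log2 fold change of the 38 genes was 0.05, against 0.01 over all genes, with 20 above and 18 below 0. Without aged vehicle 4 it was -0.55, with 8 above and 30 below 0, and the median over all genes was -0.0049. The counts at an unadjusted p under 0.05 were then 9 lower and 1 higher, or 23.7% and 2.63%, against 8.08% and 6.21% of all genes. Irf7, Isg15, Oasl2 and Xaf1 were among the 9 in that fit, with Irf9, Bst2, Gbp3, Gbp7 and Tap1, while Usp18, Dhx58 and Ifi44 were not. Ifi27 was the 1 higher gene, without Irf1 and Rsad2. Of the 41 genes, 23 were highest in aged vehicle 4, and leaving it out necessarily lowers their aged vehicle mean. Part of these shifts therefore follows from which library was left out.

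Of the transcription factors, Irf7, the main inducer of type I interferon genes and itself interferon-induced, showed the widest gap between ages. It had 1.68, 2.92 and 1.69 CPM in aged GW8510 libraries and 1.53, 1.80 and 2.99 CPM in aged vehicle libraries, against 12.2, 9.09 and 3.004 CPM in young vehicle libraries. Young vehicle 2 and 3 stood far above every aged library, while young vehicle 4 lay just above the highest aged one. In TPM young vehicle 4 lay below aged vehicle 4, at 1.93 against 2.20 TPM. The log2 fold change was -1.95 (SE 0.49, adjusted p = 0.0886) for aged vehicle over young vehicle, and did not pass. Without young vehicle 4 it was -2.34 and passed, with an adjusted p of 0.0477, and over the fits that leave out 1 library each the adjusted p ran from 0.0477 to 0.255. Irf7 lies at chr7:141262706-141266481 on GRCm38, and 45 of its exon bases overlap Phrf1 on the other strand. Phrf1 had 2773 counts in all libraries against 944 for Irf7, and whether the authors' counting used strand is not given in the sources used here.

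Irf1, a transcription factor known as an early target of interferon gamma, lay the other way. It had 8.76, 11.4 and 8.41 CPM in aged GW8510 libraries and 7.16, 8.51 and 16.4 CPM in aged vehicle libraries, against 5.85, 7.10 and 5.15 CPM in young vehicle libraries. In CPM all aged libraries lay above all young ones, though aged vehicle 1 exceeded young vehicle 3 by a small margin. In TPM they overlapped, with 4.98 TPM in young vehicle 2 against 4.23 TPM in aged vehicle 1 and 4.68 TPM in aged GW8510 1. The log2 fold change for aged vehicle over young vehicle was 0.82 (SE 0.30, adjusted p = 0.192), and 0.38 without aged vehicle 4, so neither fit called it. In CPM, Irf8, which directs myeloid cell development, and Irf9 and Stat2, which act together in the type I complex, had overlapping groups in every comparison. Stat2 ranged from 4.23 to 6.46 CPM in aged GW8510, from 5.15 to 8.704 CPM in aged vehicle and from 6.20 to 7.87 CPM in young vehicle libraries. In TPM its aged GW8510 libraries lay below all young ones, at 1.06 to 1.76 against 2.17 to 3.65 TPM.

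Isg15 encodes a ubiquitin-like protein that is attached to other proteins in interferon-treated cells, and Usp18 the protease that removes it and dampens the type I receptor. Isg15 had 0.681, 1.37 and 0.445 CPM in aged GW8510 libraries and 1.31, 0.613 and 1.04 CPM in aged vehicle libraries, against 2.43, 3.34 and 1.56 CPM in young vehicle libraries. Usp18 had 1.36, 0.797 and 0.846 CPM in aged GW8510 libraries and 1.2002, 1.27 and 1.21 CPM in aged vehicle libraries, against 1.98, 3.34 and 1.44 CPM in young vehicle libraries. Every young library exceeded every aged one for both genes, and young vehicle 3 was the highest. For aged vehicle over young vehicle the log2 fold change was -1.30 (SE 0.48, adjusted p = 0.195) for Isg15 and -0.87 (SE 0.38, adjusted p = 0.246) for Usp18.

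Oasl2 belongs to the oligoadenylate synthetase family, whose classical members make the messenger that activates RNase L. It had 0.953, 1.51 and 1.202 CPM in aged GW8510 libraries and 1.53, 1.39 and 1.34 CPM in aged vehicle libraries, against 4.10, 4.53 and 1.68 CPM in young vehicle libraries. As for Irf7, the young libraries 2 and 3 were high and young vehicle 4 lay close to the aged range. Its log2 fold change for aged vehicle over young vehicle was -1.27 (SE 0.38, adjusted p = 0.130). Oas1a, Oas2 and Oasl1 had log2 fold changes between -0.70 and -0.29 with overlapping groups. The summed level of the 5 genes of the family was 2.54 to 4.91 CPM in aged GW8510 and 3.80 to 4.62 CPM in aged vehicle libraries, against 10.02, 9.85 and 3.67 CPM in young vehicle libraries.

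Xaf1, which encodes a partner of the apoptosis inhibitor XIAP, had the smallest p of the 38 genes. It had 1.59, 3.01 and 1.47 CPM in aged GW8510 libraries and 1.60, 2.66 and 2.34 CPM in aged vehicle libraries, against 7.04, 4.14 and 6.36 CPM in young vehicle libraries. In CPM all 3 young libraries lay clear of the aged ones, and young vehicle 3 was the lowest of them. In TPM the groups overlapped, at 6.81, 4.84 and 2.92 TPM in young vehicle and 2.04, 4.97 and 4.41 TPM in aged vehicle libraries. The aged GW8510 libraries had 2.17, 3.74 and 1.55 TPM. Xaf1 carries fractional counts in 6 libraries. The log2 fold change for aged vehicle over young vehicle was -1.41 (SE 0.35, adjusted p = 0.0838), with adjusted p between 0.0733 and 0.228 over the fits without 1 library. Ifi44, a cytoplasmic antiviral protein, had 0.136, 0.487 and 0.356 CPM in aged GW8510 libraries and 0.546, 0.572 and 0.390 CPM in aged vehicle libraries, against 1.37, 1.99 and 0.702 CPM in young vehicle libraries. The groups did not overlap, but the lowest value stands for 3 counts and the log2 fold change of -1.41 (SE 0.52, adjusted p = 0.195) did not pass.

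In CPM, 6 genes of the list, Irf7, Isg15, Usp18, Oasl2, Ifi44 and Xaf1, had all 3 young libraries above all 6 aged ones. This pattern was shown by 7.9% of all genes tested. Irf1 was the only one of the list with all 3 young libraries below all aged ones, as were 6.61% of all genes. In TPM the separation of young from aged libraries held for Isg15, Usp18, Oasl2 and Ifi44, but not for Irf7, Xaf1 or Irf1. The 9 macrophage markers summed to 170, 95.1 and 161 CPM in aged GW8510 and to 78.4, 160 and 109 CPM in aged vehicle libraries, against 288, 224 and 102 CPM in young vehicle libraries. All 9 macrophage markers had negative log2 fold changes for aged vehicle over young vehicle, with a median of -0.80 and none past the threshold. Fibroblast markers summed to 208 to 494 CPM in aged GW8510 and 68.8 to 440 CPM in aged vehicle libraries, against 913 to 1932 CPM in young vehicle libraries, with all 6 lower in both aged groups by fold change and none past the threshold. Endothelial markers summed to 245 to 416 CPM in aged GW8510 and 206 to 288 CPM in aged vehicle libraries, against 332 to 402 CPM in young vehicle libraries. Young vehicle 4 was the lowest young library for the macrophage, fibroblast and endothelial sums and for Irf7, Isg15, Usp18, Oasl2 and Ifi44, but not for Xaf1. Dendritic cell markers summed to 10.9 to 14.1 CPM in aged GW8510 and 8.18 to 11.9 CPM in aged vehicle libraries, against 8.86 to 10.4 CPM in young vehicle libraries. The part of these cells in the interferon values was not tested.

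**Figure D2:**
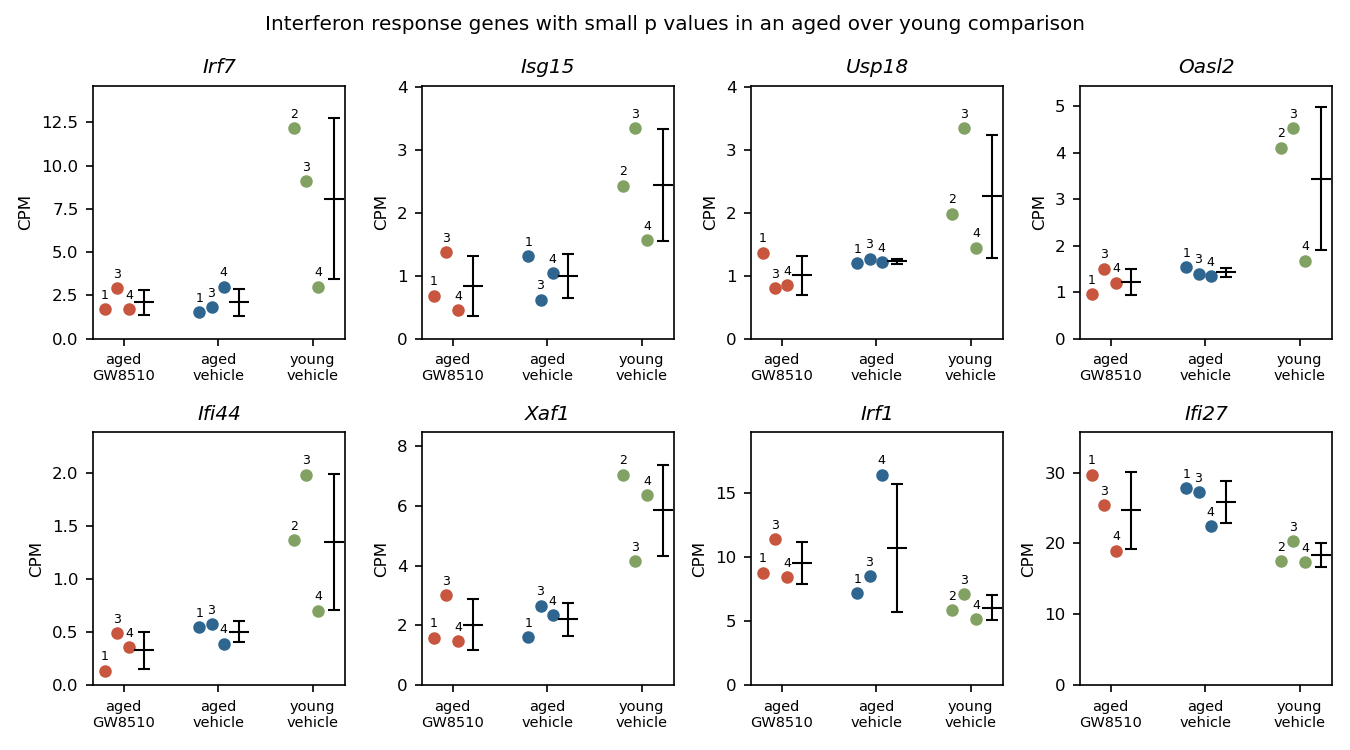
CPM of 8 interferon response genes in each library, with the replicate number beside each point and the mean and SD of each group of 3 at its right, on linear axes from 0. For Irf7, Isg15, Usp18, Oasl2, Ifi44 and Xaf1 the young points lie above all aged points, young vehicle 4 being the lowest young point except for Xaf1, while Irf1 and Ifi27 lie higher in aged vehicle than in young vehicle muscle.

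Of the sensors, Dhx58 encodes LGP2, a regulator of the RNA sensors RIG-I and MDA5. It had 0.726, 0.664 and 0.401 CPM in aged GW8510 libraries and 0.436, 0.409 and 0.303 CPM in aged vehicle libraries, against 0.684, 1.14 and 0.585 CPM in young vehicle libraries. In CPM the aged vehicle libraries lay below the young ones and the GW8510 libraries overlapped both. In TPM all GW8510 libraries exceeded all aged vehicle ones, at 0.31 to 0.42 against 0.18 to 0.26 TPM. Its log2 fold change for aged vehicle over young vehicle was -1.05 (SE 0.45, adjusted p = 0.244), from at most 27 counts in a library. Ddx58, which encodes RIG-I, and Ifih1, which encodes MDA5, had overlapping groups throughout in CPM. In TPM the aged GW8510 libraries lay below all young ones for Ddx58, at 1.01 to 1.31 against 1.56 to 2.31 TPM. Zbp1, a sensor of Z-form nucleic acid, had 1, 2 and 4 counts in aged GW8510 libraries and 6, 3 and 24 counts in aged vehicle libraries, against 20, 7 and 6 counts in young vehicle libraries. These low counts were not tested.

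The IFIT proteins bind foreign RNA, and their genes lie side by side on chromosome 19. Ifit3 had 14.7, 17.5 and 14.0 CPM in aged GW8510 libraries and 19.8, 15.6 and 15.8 CPM in aged vehicle libraries, against 2.05, 10.7 and 18.5 CPM in young vehicle libraries. The young libraries spanned a wider range than all aged ones, with young vehicle 2 the lowest of the 9. Ifit3 and its neighbour Ifit3b are near copies, identical at 97.8% of 1700 aligned transcript positions, and both carry fractional counts in all 9 libraries, so the split between them is uncertain. Ifit3b had 6.13, 8.81 and 5.30 CPM in aged GW8510 libraries and 10.04, 8.34 and 8.96 CPM in aged vehicle libraries, against 5.03, 9.13 and 8.62 CPM in young vehicle libraries. Their sum was 22.1 ± 3.69 CPM in aged GW8510 and 26.2 ± 3.19 CPM in aged vehicle libraries, against 18.0 ± 10.2 CPM in young vehicle libraries (SD, n = 3 each). All 4 genes of the family had overlapping groups in the 3 comparisons.

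Among the other antiviral effectors, Bst2, which encodes the virus-tethering protein tetherin, had 6.72, 8.63 and 6.59 CPM in aged GW8510 libraries and 5.64, 7.03 and 12.7 CPM in aged vehicle libraries, against 8.34, 14.7 and 9.79 CPM in young vehicle libraries. The groups overlapped. Rsad2, which encodes viperin, had 0.636, 0.664 and 0.623 CPM in aged GW8510 libraries and 0.655, 0.900 and 1.60 CPM in aged vehicle libraries, against 0.513, 0.634 and 0.468 CPM in young vehicle libraries. In CPM all aged vehicle libraries exceeded the young ones, aged vehicle 1 by a small margin. In TPM aged vehicle 1 lay below young vehicle 4, at 0.20 against 0.22 TPM. The log2 fold change of Rsad2 was 0.96 (SE 0.42, adjusted p = 0.254), and 0.52 without aged vehicle 4. Parp14, an ADP-ribosyltransferase, had 5.63, 7.31 and 6.37 CPM in aged GW8510 libraries and 7.38, 6.09 and 17.9 CPM in aged vehicle libraries, against 14.0, 8.75 and 7.41 CPM in young vehicle libraries. Aged vehicle 4 was the highest of the 9 libraries for Rsad2 and Parp14 and second to young vehicle 3 for Bst2. Mx1 and Mx2, of a family of dynamin-like GTPases that trap viral particles, stayed at or below 0.996 CPM in every library. Mx2 is annotated as a polymorphic pseudogene in GENCODE M21.

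Ifi27, an interferon-induced membrane protein gene and the most abundant of the list, had 29.7, 25.4 and 19.0 CPM in aged GW8510 libraries and 27.8, 27.2 and 22.4 CPM in aged vehicle libraries, against 17.5, 20.3 and 17.4 CPM in young vehicle libraries. The aged vehicle libraries lay above the young ones, and aged GW8510 4 lay within the young range. Its log2 fold change for aged vehicle over young vehicle was 0.49 (SE 0.18, adjusted p = 0.198). Unlike Irf1, it kept this size without aged vehicle 4, at 0.58.

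The clearest feature of the list was the level of the interferon-inducible GTPases in aged vehicle 4. These proteins assemble on the vacuoles of intracellular microbes and are known in mice as strong targets of interferon gamma. Gbp2, Gbp3, Gbp5 and Gbp7 lie in a cluster on chromosome 3, Gbp4 on chromosome 5, Igtp and Irgm1 on chromosome 11 and Iigp1 on chromosome 18. All 8 genes were highest in aged vehicle 4. Their summed level was 46.2, 60.4 and 38.8 CPM in aged GW8510 libraries and 45.1, 51.6 and 254 CPM in aged vehicle libraries, against 60.1, 67.8 and 71.0 CPM in young vehicle libraries.

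Gbp4 had 3.50, 7.44 and 1.78 CPM in aged GW8510 libraries and 3.53, 6.34 and 69.6 CPM in aged vehicle libraries, against 5.92, 13.4 and 5.03 CPM in young vehicle libraries. Iigp1 had 1.54, 6.91 and 2.63 CPM in aged GW8510 libraries and 3.09, 4.83 and 35.6 CPM in aged vehicle libraries, against 7.22, 6.05 and 7.72 CPM in young vehicle libraries. Gbp2 had 5.81, 8.50 and 5.74 CPM in aged GW8510 libraries and 5.24, 6.17 and 35.7 CPM in aged vehicle libraries, against 7.35, 8.37 and 5.97 CPM in young vehicle libraries. The other 8 libraries stayed at or below 13.4 CPM for Gbp4, 7.72 CPM for Iigp1 and 8.50 CPM for Gbp2, and aged vehicle 4 alone lay far above them, at 14.1, 8.98 and 6.26 times the mean of the other aged vehicle libraries for these genes in that order. Gbp3 and Gbp5 stood at 8.41 and 6.73 times that mean. Igtp, whose product guards host membranes together with Irgm1, had 14.2, 8.86 and 9.48 CPM in aged GW8510 libraries and 9.06, 13.0 and 36.9 CPM in aged vehicle libraries, against 7.04, 12.5 and 19.2 CPM in young vehicle libraries. Irgm1 had 12.4, 16.9 and 11.1 CPM in aged GW8510 libraries and 14.2, 13.1 and 35.5 CPM in aged vehicle libraries, against 13.2, 14.7 and 13.6 CPM in young vehicle libraries. The other 8 libraries lay within a narrow band for Irgm1 and were more spread for Igtp. Igtp shares 8.01% of its exon bases with Irgm2 on the same strand and carries fractional counts in 8 libraries, and Gbp4 shares exon bases with Gbp8 and Gbp9, so part of their reads could be split with these neighbours.

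Aged vehicle 4 exceeded the highest of the other 8 libraries more than 2 times in 7 of the 38 genes tested, namely Gbp2, Gbp3, Gbp4, Gbp5, Irgm1, Iigp1 and Tap1, against 222 of 14384 genes (1.54%). For the 8 GTPases the median log2 fold change of aged vehicle over young vehicle was 0.83 with all libraries, with 7 of 8 above 0, and -0.55 without aged vehicle 4, with all 8 below 0. No GTPase passed the threshold either way. The B and plasma cell, neutrophil and T and NK cell marker sums given above were also highest in this library, and their part in the GTPase levels was not tested.

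**Figure D3:**
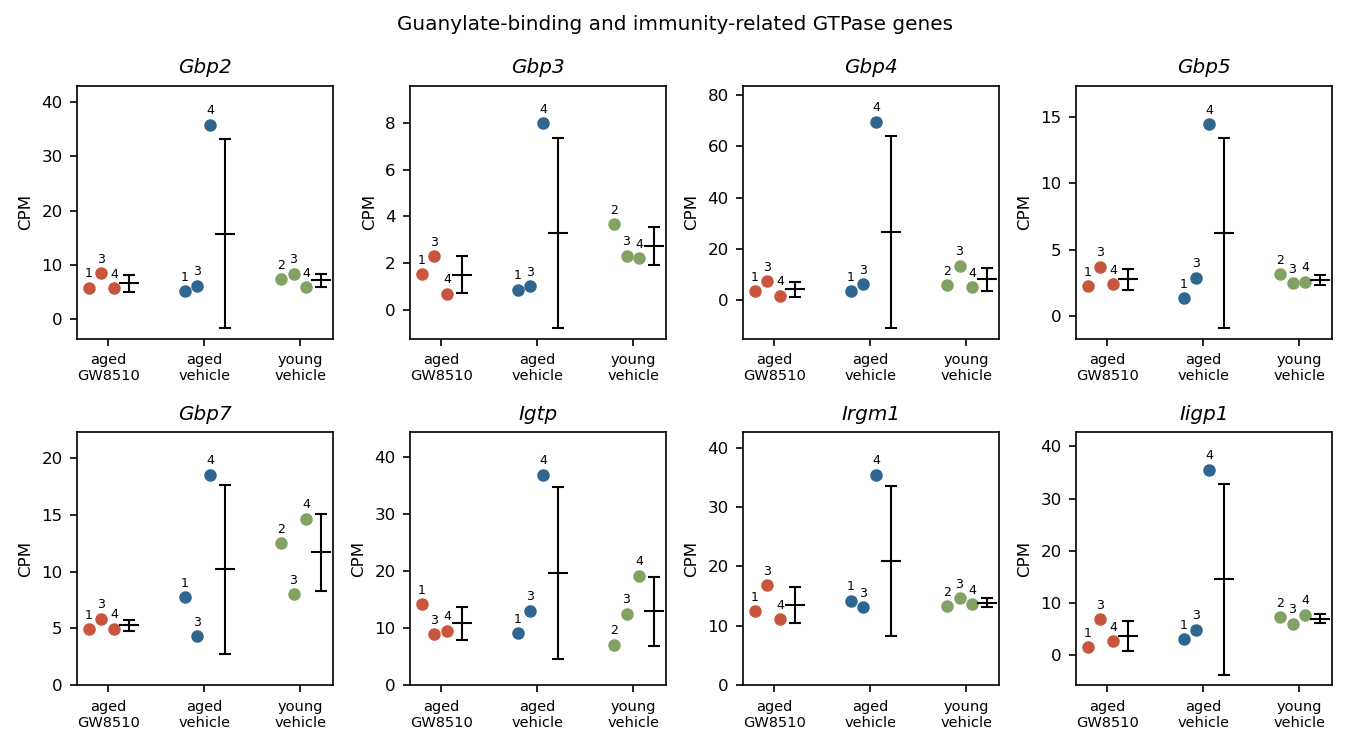
CPM of the 8 guanylate-binding and immunity-related GTPase genes in each library, with replicate numbers beside the points and the mean and SD of each group of 3 at its right; SD bars that reach below 0 come from the spread in aged vehicle muscle. In every panel aged vehicle 4 is the highest point, from 7.97 CPM for Gbp3 to 69.6 CPM for Gbp4.

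Psmb8, Psmb9 and Psmb10 encode the catalytic subunits of the immunoproteasome, and Tap1 a subunit of the transporter that carries peptides into the endoplasmic reticulum. Psmb10 had 10.2, 11.0 and 7.97 CPM in aged GW8510 libraries and 8.47, 10.4 and 9.96 CPM in aged vehicle libraries, against 8.34, 10.6 and 9.17 CPM in young vehicle libraries. It was among the steadiest genes of the list, with a log2 fold change of 0.04 (SE 0.18, adjusted p = 0.933) for aged vehicle over young vehicle. Tap1, named for its level in aged vehicle 4, had 3.27, 3.01 and 2.94 CPM in aged GW8510 libraries and 1.71, 2.70 and 9.92 CPM in aged vehicle libraries, against 3.15, 4.48 and 4.10 CPM in young vehicle libraries. Psmb8 and Psmb9 were likewise highest in aged vehicle 4, at 15.6 and 5.67 CPM, against at most 10.5 and 3.76 CPM elsewhere. Tap1 and Psmb9 share 212 exon bases on opposite strands.

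GW8510 was compared with vehicle in muscle of the same age, which asked which transcripts differ with the compound. No interferon response gene passed by edgeR, DESeq2 or limma-voom, and by edgeR 0 of 14384 genes (0.0%) passed, with 647 at an unadjusted p under 0.05. By DESeq2, 0.0039% of all genes passed as lower and 0.0273% as higher. At that unadjusted p, 3 of the 38 genes were lower and 0 higher, which is 7.89% lower, against 1.79% lower and 2.71% higher of all genes. The median log2 fold change of the 38 genes was -0.32, against 0.01 over all genes, with 4 above and 34 below 0. Without aged vehicle 4 the median was -0.08, with 16 above and 22 below 0, and 0 of the 38 genes had an unadjusted p under 0.05 in either direction, against 1.25% lower and 1.83% higher of all genes.

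The 3 genes at an unadjusted p under 0.05 were Gbp4, Iigp1 and Ifi35. Gbp4, whose values are given above, had a log2 fold change of -2.64 (SE 1.03, adjusted p = 0.934) for aged GW8510 over aged vehicle, and -0.23 without aged vehicle 4. Iigp1 had -1.97 (SE 0.85, adjusted p = 0.934), and -0.10 without that library. For Gbp2 the sign turned, with -1.23 (SE 0.63, adjusted p = 0.934) in all libraries and 0.22 without it. Over the 8 GTPases the median was -1.13, with all 8 below 0, and -0.03 without aged vehicle 4, with 3 above and 5 below 0. For Gbp7, Irgm1, Parp14 and Rsad2, next in order of p, the log2 fold changes between -0.95 and -0.63 became -0.28 to -0.03 without aged vehicle 4.

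In CPM, Ifi35 was the 1 gene of the list whose GW8510 and aged vehicle libraries did not overlap, against 3.33% of all genes lower and 3.89% higher without overlap. This gene for a leucine zipper protein induced by interferon had 12.3, 13.9 and 12.4 CPM in aged GW8510 libraries and 15.02, 16.5 and 18.6 CPM in aged vehicle libraries, against 12.1, 15.6 and 15.1 CPM in young vehicle libraries. In CPM the GW8510 libraries lay below all aged vehicle libraries and within the young range. In TPM they lay below both other groups, at 10.7, 11.6 and 11.8 TPM, against 14.05 to 15.7 TPM in young vehicle libraries. The log2 fold change for aged GW8510 over aged vehicle was -0.38 (SE 0.16, adjusted p = 0.934), and -0.30 without aged vehicle 4. In TPM these groups also did not overlap for Oasl2, Usp18, Ifi44, Ifit3b, Rsad2 and Mx2, all lower in aged GW8510, and for Dhx58, higher. The share of all genes without overlap in TPM is not given here. For Irf7 the log2 fold change of aged GW8510 over aged vehicle was -0.0001 (SE 0.53), for Xaf1 -0.12 (SE 0.35), for Oasl2 -0.22 (SE 0.39) and for Isg15 -0.25 (SE 0.50). These errors leave room for differences in either direction, and a p that misses the threshold does not show that the groups were alike.

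**Figure D4:**
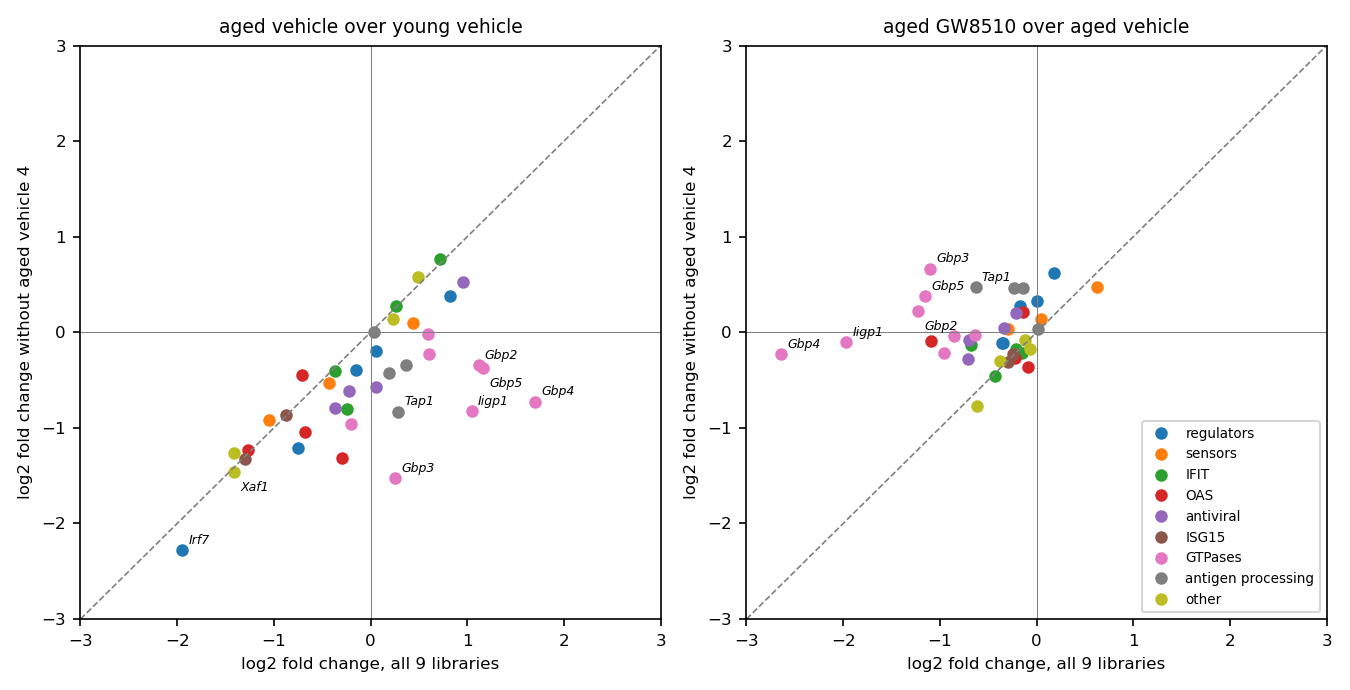
Log2 fold change of each of the 38 genes tested with all 9 libraries (horizontal axis) and without aged vehicle 4 (vertical axis), for aged vehicle over young vehicle at left and aged GW8510 over aged vehicle at right, coloured by role, with a dashed line where both are equal. GTPases lie far off the line in both panels, Gbp4 at 1.70 against -0.73 at left and -2.64 against -0.23 at right, while Irf7 and Xaf1 stay near it at left.

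GW8510-treated aged muscle was also set against young vehicle muscle. This comparison shares the young libraries with that of aged vehicle and young vehicle, so the values are given side by side. No interferon response gene passed by edgeR or limma-voom, while 108 of 14384 genes (0.751%) passed by edgeR. By DESeq2, Irf7, Oasl2, Ifi44 and Xaf1 passed, all lower, which is 10.3% of the 39 genes with an adjusted p, against 2.78% lower and 2.62% higher of all genes. At an unadjusted p under 0.05, 7 of 38 genes were lower and 1 higher, which is 18.4% and 2.63%, against 8.17% and 8.51% of all genes. With aged vehicle 4 left out of the fit they were 10 lower and 2 higher, or 26.3% and 5.26%, against 11.1% and 10.6%. Groups did not overlap for 8 genes that were lower, or 21.1%, against 12.8% of all genes, and for 1 that was higher, Irf1, or 2.63%, against 12.9%. The median log2 fold change was -0.53, against 0.01 over all genes, with 9 above and 29 below 0, and it was -0.54 when the fit left out aged vehicle 4, which is in neither group.

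Xaf1 had the smallest p here too, with a log2 fold change of -1.53 (SE 0.35, adjusted p = 0.0725), beside -1.41 for aged vehicle over young vehicle. When aged vehicle 4 was left out of the shared estimate of spread it passed, at -1.54 and an adjusted p of 0.0448, and over the fits without 1 library the adjusted p ran from 0.0448 to 0.203. Irf7 had -1.95 (SE 0.49, adjusted p = 0.0916), beside -1.95, and passed without young vehicle 4, at an adjusted p of 0.0489 in a range of 0.0489 to 0.251. Oasl2 had -1.49 (SE 0.39, adjusted p = 0.0940), beside -1.27. Ifi44 had -2.03 (SE 0.55, adjusted p = 0.104), beside -1.41, with 3 to 11 counts in the GW8510 libraries. Isg15 had -1.54 (SE 0.49, adjusted p = 0.155), beside -1.30, and Usp18 had -1.17 (SE 0.38, adjusted p = 0.166), beside -0.87.

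Gbp7 was the GTPase with the smallest p against young muscle. It had 4.95, 5.84 and 4.99 CPM in aged GW8510 libraries and 7.75, 4.29 and 18.6 CPM in aged vehicle libraries, against 12.5, 7.99 and 14.7 CPM in young vehicle libraries. The GW8510 libraries were closely grouped and all below the young ones, while the aged vehicle libraries spanned the range of both. Its log2 fold change for aged GW8510 over young vehicle was -1.16 (SE 0.45, adjusted p = 0.238), and -1.17 with aged vehicle 4 left out of the fit. Gbp7 overlaps a processed pseudogene on the same strand over 11.3% of its exon bases and carries fractional counts in 6 libraries. Parp14 was also lower without overlap, at a log2 fold change of -0.64 (SE 0.40, adjusted p = 0.450). Ifi27 and Irf1 were the higher genes with the smallest p, at 0.43 (SE 0.18, adjusted p = 0.281) and 0.66 (SE 0.30, adjusted p = 0.312).

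The authors' deposited tables mark as significant Irf7 and Xaf1, both lower, among 653 genes marked for aged vehicle against young vehicle. Of all 653, 437 were lower and 216 higher. The tables list 55536 genes, of which 29661 had no count in any library. For GW8510 against young vehicle the authors' deposited table marks Irf7, Oasl2, Isg15, Gbp7, Ifi44 and Xaf1, all lower, among 729 genes. Of all 729, 429 were lower and 300 higher. For GW8510 against aged vehicle the authors' deposited table marks 6 genes, of which 0 are interferon response genes.

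Outside the list, 82 other genes of the interferon pathway were read from the same fit, of which 68 were tested and 0 passed by edgeR in any comparison. At an unadjusted p under 0.05, 12 were lower and 4 higher for aged vehicle over young vehicle, which is 17.6% and 5.88%, against 10.1% and 9.07% of all genes. For aged GW8510 over aged vehicle 1 was lower and 2 were higher, or 1.47% and 2.94%, against 1.79% and 2.71%. For aged GW8510 over young vehicle 7 were lower and 0 higher, or 10.3% and 0.0%, against 8.17% and 8.51%. Without aged vehicle 4, 70 of these genes were tested, and the comparisons follow in the same order at the same unadjusted p. In the first, 11 were lower and 1 higher, or 15.7% and 1.43%, against 8.08% and 6.21% of all genes. In the second, 0 were lower and 3 higher, or 0.0% and 4.29%, against 1.25% and 1.83%. In the third, 9 were lower and 3 higher, or 12.9% and 4.29%, against 11.1% and 10.6%. By DESeq2, Ifnar1, Ifi204 and Rtp4 passed as lower and Cxcl10 as higher for aged vehicle over young vehicle, which is 4.23% and 1.41% of the 71 with an adjusted p, against 3.55% and 2.48% of all genes. Lgals3bp passed by DESeq2 as lower for aged GW8510 over young vehicle, or 1.43% of 70, against 2.78%. Its log2 fold change there by edgeR was -1.08 (SE 0.28, adjusted p = 0.0970), and it passed with aged vehicle 4 left out of the fit, at -1.09 and an adjusted p of 0.0482. By limma-voom 0 passed in any comparison. The median log2 fold change of the 68 genes for aged vehicle over young vehicle was -0.10, and -0.27 without aged vehicle 4, with 16 above and 52 below 0. For aged GW8510 over aged vehicle it was -0.06, and its sign turned to 0.09 without that library, with 42 above and 26 below 0. It was -0.19 for aged GW8510 over young vehicle.

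Of 9 interferon genes, Ifnb1 and 7 others had no count in any library, which allows up to 3 counts or 0.109 to 0.138 CPM each. Ifng, which encodes interferon gamma, had 0.0818 CPM in aged vehicle 3 and no count elsewhere, aged vehicle 4 included. Ifnar1, a chain of the type I interferon receptor, had 8.90, 11.3 and 8.77 CPM in aged GW8510 libraries and 8.51, 9.32 and 8.31 CPM in aged vehicle libraries, against 17.6, 13.1 and 11.8 CPM in young vehicle libraries. All aged libraries lay below all young ones. Its log2 fold change was -0.70 (SE 0.19, adjusted p = 0.100) for aged vehicle over young vehicle and -0.55 (SE 0.19, adjusted p = 0.179) for aged GW8510 over young vehicle. It did not pass by edgeR and passed by DESeq2 in the first of these comparisons. Ifngr1, a chain of the interferon gamma receptor, ranged from 19.5 to 26.4 CPM in aged GW8510 libraries and from 17.8 to 21.1 CPM in aged vehicle libraries, against 20.8 to 25.8 CPM in young vehicle libraries.

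Aged vehicle 4 held the highest level of 29 of the 74 pathway genes with a count, or 39.2%, against 23.2% of all genes tested. Among these, and chosen after their values were seen, Tgtp1 and Ifi47, which also encode immunity-related GTPases, stood at 28.9 and 7.45 CPM in aged vehicle 4 against at most 6.24 and 1.73 CPM elsewhere. Of the guanylate-binding genes outside the list of 41, Gbp9 was also highest in aged vehicle 4, at 18.7 CPM against at most 10.5 CPM elsewhere, whereas Gbp6 had 9.18 CPM there and was highest in aged vehicle 3, at 11.9 CPM.

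**Figure D5:**
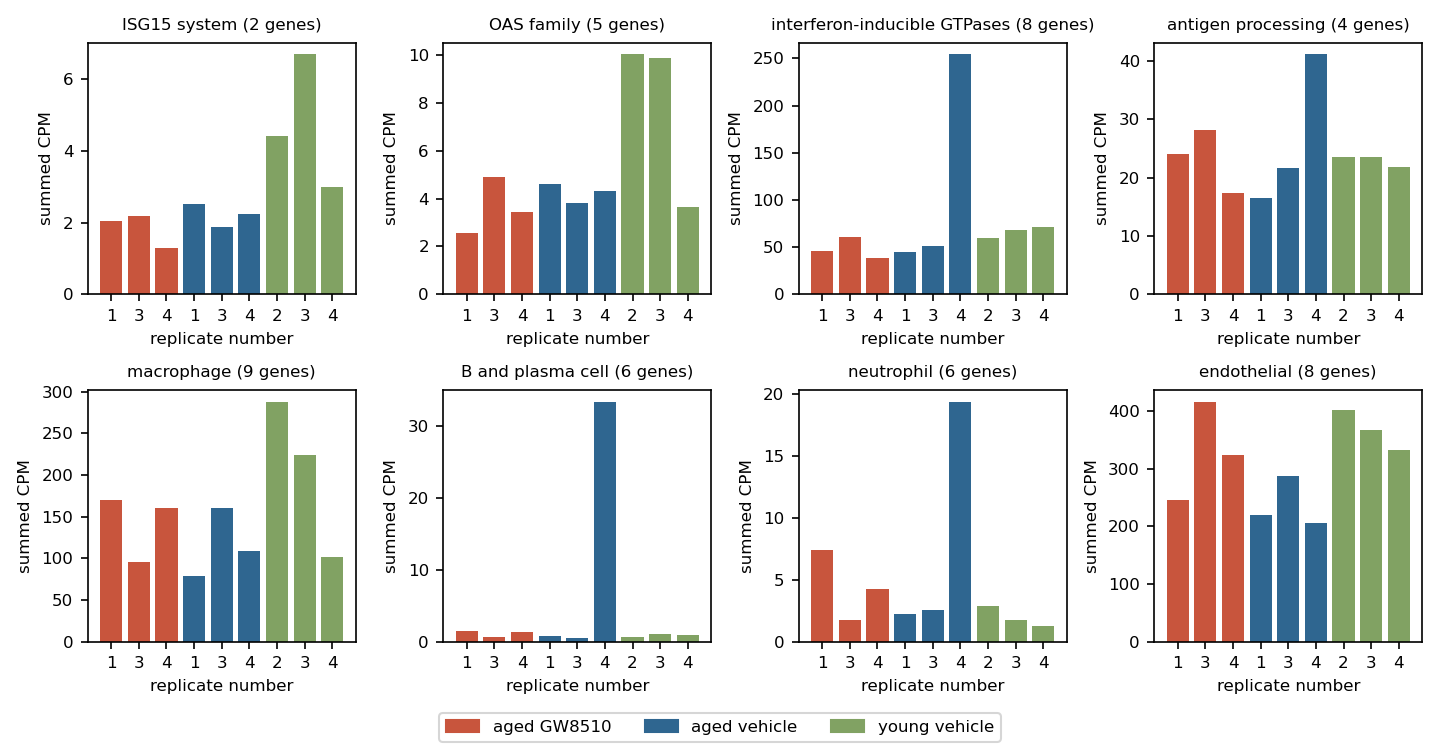
Summed CPM in each library of 4 groups of interferon response genes (top) and of the markers of 4 cell types (bottom), as bars from 0 with the replicate number below and colour for the group. The GTPase sum reaches 254 CPM in aged vehicle 4 where no other library exceeds 71.0 CPM, beside B and plasma cell and neutrophil markers that also peak there. The ISG15 and OAS sums are highest in young vehicle 2 and 3, where the macrophage sum is highest too, as is the fibroblast sum given above. The endothelial sum is instead highest in aged GW8510 3, at 416 CPM, against 402 CPM in young vehicle 2.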

How the data were processed

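RNA sequencing of muscle gave 9 libraries in 3 groups, taken from the labels. Expected counts per gene were deposited by the authors without normalization, per the file headers, beside TPM values, which the authors deposited per library. A log2 ratio with raw and adjusted p-values was deposited by the authors for every pairwise comparison. The submitters' processing notes list the build GRCm38 and, among other tools, HISAT2 and RSEM, without saying what each did; strand use and the annotation are not given in the sources used here. Coordinates and overlaps came from GENCODE M21, which holds all 55536 gene IDs.

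Counts (91.4% whole) were rounded and filtered with filterByExpr, leaving 14384 genes. The two-sided quasi-likelihood test of edgeR 4.0.16 (R 4.3.3) was fitted to the 9 libraries together with TMM factors and a mean for each group. Its p-values were adjusted by Benjamini-Hochberg over all genes tested, with a threshold of 0.05. SE is the log2 fold change, without its sign, divided by the root of the F statistic. The common dispersion was 0.0812. Groups were called not overlapping when every library of one lay above every library of the other in CPM. Recovery was tested on simulated data, with changes planted only in genes with higher counts. Of 100 planted 4-fold changes 88 to 92 were recovered per comparison, and of 100 planted 2-fold changes 28 to 32. Most 2-fold differences would therefore miss the threshold.

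The 41 genes, the 82 other pathway genes, the marker lists and the alternatives were chosen with earlier results of these data known. Values in every library are given for the 8 genes with the smallest p in each comparison, for the 4 with the highest mean TPM and for 1 or 2 of each role not yet covered, and for further genes marked as chosen after their values were seen or needed beside a result. DESeq2 1.42.0, limma 3.58.1 (voom), other scalings, filters and sample sets were alternatives. No shared deviation of same-numbered libraries of different groups was detected, and the replicate numbers were not used as pairs in the reported fit. So few libraries per group cannot exclude pairing. Floors of 3 counts cover counting error only. Sequences are from RefSeq.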

Additional observations from a re-analysis of the deposited data

How the results depend on the processing

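No interferon response gene passed in any of the 3 comparisons with TMM, median-of-ratios or library-total scaling or with limma-voom. For aged vehicle over young vehicle, 2 passed with DESeq2 and 2 without the filter on low counts (Irf7 and Xaf1 each time), and 0 to 1 when single libraries were left out (Irf7 without young vehicle 4). All genes called numbered 175, against 946 with DESeq2, 699 without the filter, 50 with only the 6 libraries compared and 19 to 148 without single libraries, from the fits without young vehicle 3 and without aged vehicle 3. For aged GW8510 over young vehicle, 4 passed with DESeq2, 2 without the filter (Irf7 and Xaf1), 1 with only the 6 libraries compared (Gbp7) and 0 to 1 without single libraries (Irf7 without young vehicle 4, Xaf1 without aged vehicle 4). All genes called there numbered 108, against 820, 553 and 469 under the same settings in that order, and 25 to 594 without single libraries, from the fits without aged GW8510 3 and without aged vehicle 4. For aged GW8510 over aged vehicle, 0 genes of the list passed under any setting, and all genes called numbered 0, against 8 with DESeq2, 5 without the filter and 0 to 2 without single libraries (2 without aged vehicle 3). The causes of these moves were not tested.

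The median log2 fold change of the list ran from -0.55 to 0.17 for aged vehicle over young vehicle without single libraries, the low end without aged vehicle 4 and the high end without aged vehicle 3, and was -0.17 by limma-voom against 0.05 by edgeR. It ran from -0.55 to -0.08 for aged GW8510 over aged vehicle, the high end without aged vehicle 4, and from -0.66 to -0.34 for aged GW8510 over young vehicle. Of the fold changes of the 8 genes with the smallest p in each comparison, recomputed under each alternative, 369 kept direction and side of the threshold, 14 passed it where the reported fit did not, and 1 reversed: Gbp2 for aged GW8510 over aged vehicle, 0.22 without aged vehicle 4, in a range of -1.65 to 0.22 without single libraries. Over all 38 genes tested, leaving out aged vehicle 4 turned the sign of 12 for aged vehicle over young vehicle, among them Gbp4 (1.70 against -0.73 without it), Gbp2 (1.12, -0.34), Gbp5 (1.17, -0.38) and Iigp1 (1.05, -0.83). It turned 12 for aged GW8510 over aged vehicle, among them Gbp3 (-1.10, 0.67) and Gbp5 (-1.15, 0.38), and 0 for aged GW8510 over young vehicle. None of these passed the threshold in either fit.

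With the replicate number as a block, 5 genes were called for aged vehicle over young vehicle and 8 for aged GW8510 over young vehicle, 0 of them interferon response genes, and the median of the list in the second was -0.25. Deviations of same-numbered libraries correlated between -0.21 and 0.14, and those of differently numbered ones between -0.23 and 0.27. No shared deviation was detected, but so few libraries per group cannot exclude that the numbers pair the libraries. Depth limits the genes under about 1 CPM, such as Ifi44, Zbp1, Oas3 and Mx1.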
